A study of Homo sapiens with 2 samples.

Results

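The genes described here belong to families of enzymes that write and erase acetyl and methyl groups on histones. Some of them act on other proteins or molecules. They were taken by gene name from the deposited tables: all KDM, KMT, KAT, SETD, HDAC and SIRT genes that match the family patterns, together with EZH1, EZH2, EHMT1, EHMT2, NSD1 and DOT1L. The rule gave 68 of the 20263 genes in the tables. Of these, 63 reached 1 CPM (count scaled to library size with edgeR's TMM factors) in at least 1 library and are called expressed here, of 11813 expressed genes in all.

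The libraries came from Cal-27, an established line of oral squamous cell carcinoma cells from the tongue. The first carried a stably transduced hairpin directed at HIPK2, a kinase of the nucleus (sh-HIPK2, construct GV-248-HIPK2-sh). The other carried the control vector (sh-scramble), and both were grown in regular medium. The sources used here do not say whether each was a clone or a pool of transduced cells. With 1 library a group, no difference below has a replicate check and no p-value is given, and the values describe this pair of libraries rather than the conditions. In bulk RNA, fewer cells that express a gene and less of its RNA per cell cannot be told apart. The intervals in parentheses are exact 95% intervals of the CPM ratio and cover counting error only.

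The HIPK2 shRNA library held 26450251 counts and the scramble library 28064923 counts. HIPK2 itself had 218 counts in the HIPK2 shRNA library and 110 in the scramble library, a CPM ratio of 2.01 (1.59 to 2.55). In the authors' TPM (a transcript abundance scaled for transcript length) it had 0.873 in the HIPK2 shRNA library and 1.63 in the scramble library. The transcript length implied by its count over FPKM was 13816 bases in the library labelled HIPK2 shRNA and 3442 bases in the scramble library, 4.01 times apart. The counts go against the label and the TPM with it, so directions below are given for the library labelled HIPK2 shRNA. The epithelial markers KRT5 (1765 and 1624 TPM) and TP63 (23.1 and 20.7 TPM) were present in the library labelled HIPK2 shRNA and in the scramble library. KRT14 (1.45 and 9.77 TPM) and DSG3 (1.59 and 1.08 TPM), also on the squamous list of 9 markers, were low, in the same order. Markers of other cell types were partly present. The 3 muscle markers, PTPRC and CD3E (leukocytes) and PECAM1 (endothelium) had 0 counts in both libraries. The endothelial marker CDH5 was at 27.3 CPM in the library labelled HIPK2 shRNA and 55.2 CPM in the scramble library, and VWF had 31 and 25 counts in the same order. The leukocyte markers CD68 (558 and 634 counts) and ITGAM (55 and 43 counts) and the fibroblast marker COL1A1 (343 and 263 counts) were also detected, in the library labelled HIPK2 shRNA and in the scramble library. The 4 fibroblast markers summed to 6.11 TPM in the library labelled HIPK2 shRNA and 4.59 TPM in the scramble library, and the part of these markers in the results was not tested.

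Acetyltransferases add acetyl groups to histone lysines, which loosens chromatin and is read by bromodomain proteins. Deacetylases remove them: the zinc-dependent HDACs, some of them in repressor complexes with a demethylase, and the NAD-dependent sirtuins. Lysine methylation has either meaning. H3K4 methylation marks promoters and enhancers and is laid down by the COMPASS complexes, whose catalytic subunits are KMT2A, KMT2B, KMT2C, KMT2D, SETD1A and SETD1B. H3K27 methylation by EZH1 or EZH2 and H3K9 methylation by EHMT1 and EHMT2 mark silenced chromatin. Demethylases of the KDM families take the marks off again, by a flavin-dependent (KDM1) or a Jumonji (KDM2 to KDM8) reaction. In squamous carcinomas of the head and neck, KMT2D and NSD1 are known as recurrently mutated genes.

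More members were higher than lower in the library labelled HIPK2 shRNA, mostly by small factors. Of 63 expressed members, 43 had a log2 ratio above 0 (68.3%) and 20 below it, while over all 11813 expressed genes 5909 were above 0. The log2 ratio was taken after adding 1 CPM to both libraries, with the scramble library as the denominator. At 1.5-fold, 11 members were higher (17.5%) and 2 lower (3.17%), and over all expressed genes 10.6% were higher and 9.96% lower. At 2-fold, 1 member was higher and 0 lower, with 3.26% higher and 2.87% lower over all expressed genes. The median log2 ratio was 0.19 for the members and 0.00023 for all expressed genes. The 68 genes together took 0.325% of the counts of the library labelled HIPK2 shRNA and 0.257% of those of the scramble library. Without KDM1A the shares were 0.266% in the library labelled HIPK2 shRNA and 0.227% in the scramble library.

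**Figure D1:**
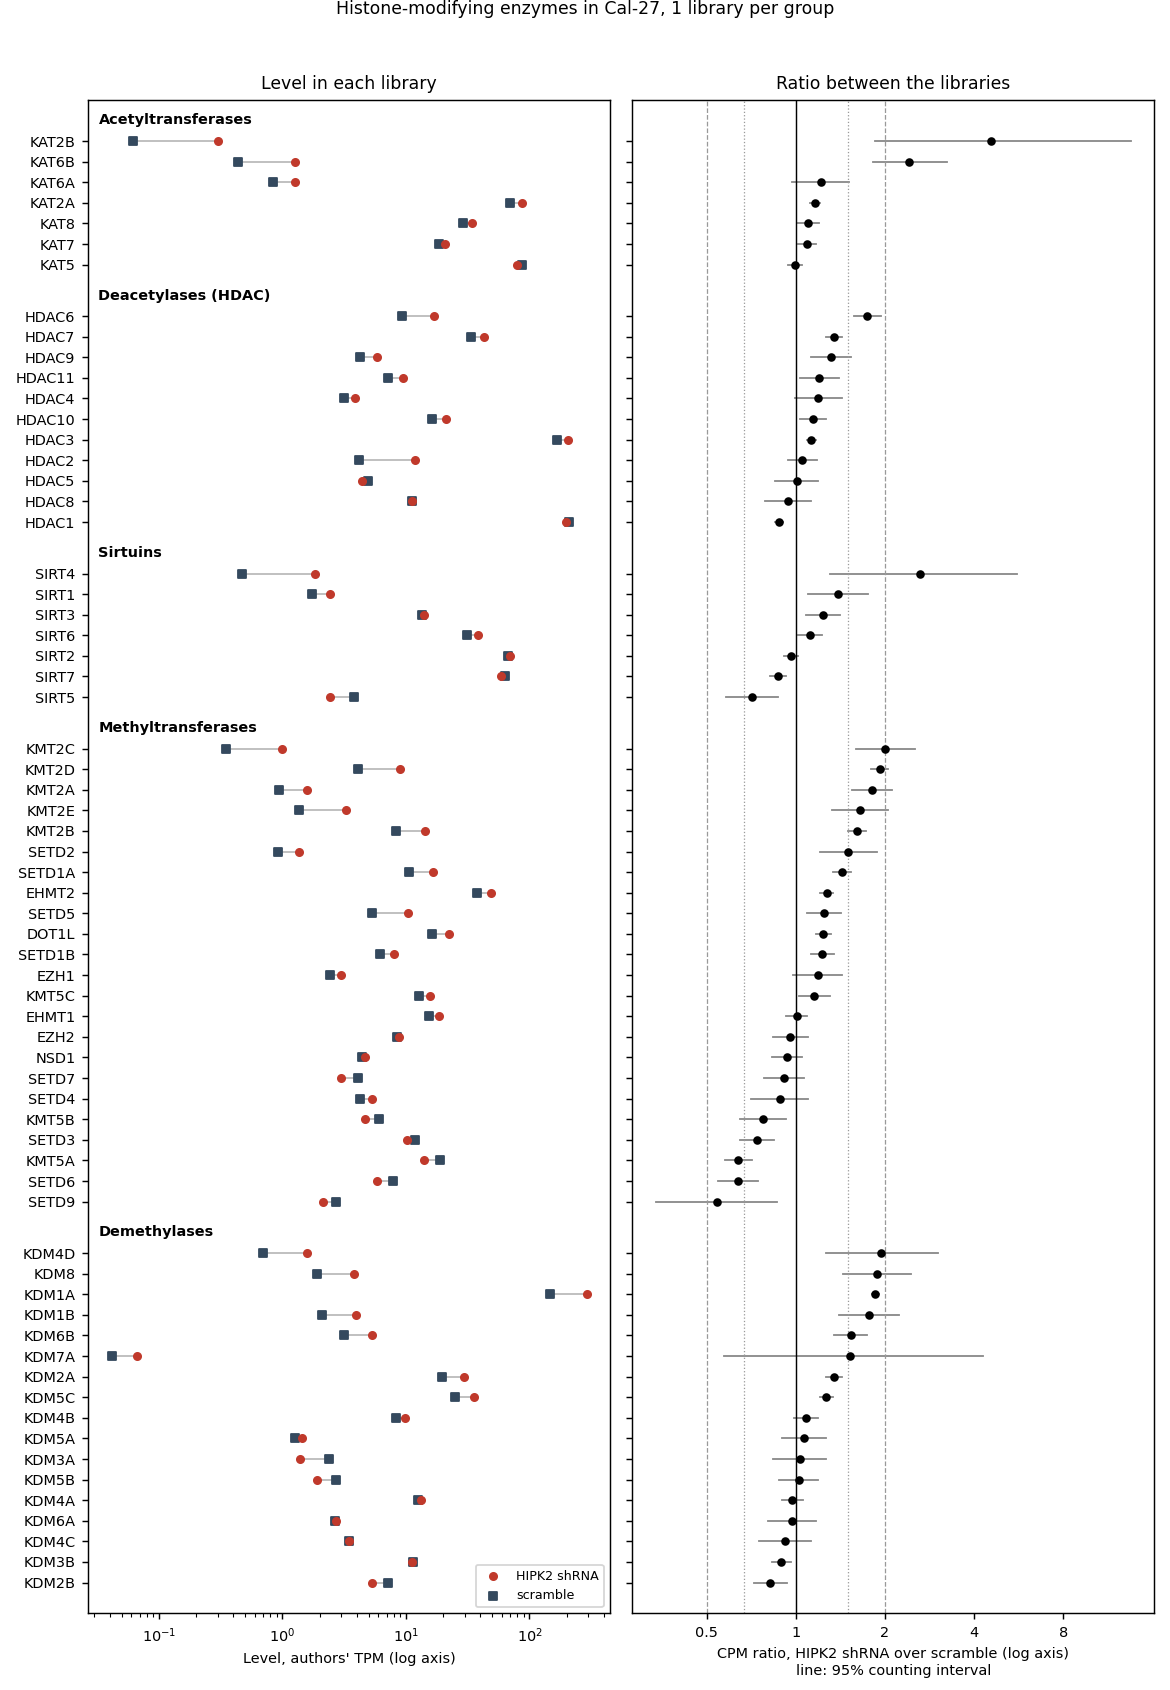
Level and ratio of the 65 members with a count, by class. Left, the authors' TPM on a log axis in the library labelled HIPK2 shRNA (circles) and the scramble library (squares); right, the CPM ratio on a log axis with its 95% counting interval (lines at 1.5-fold dotted, at 2-fold dashed). KDM1A has a high level and a narrow interval (1.80 to 1.90), while KAT2B, KDM7A and SIRT4 rest on few counts and have wide ones.

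The promoter sequences of the 4 members with the highest log2 ratio (1 CPM added) and the 1 with the lowest, among those at 5 CPM or more in a library, are shown, because they are the genes the account below turns on. Each runs 5′ to 3′ on the gene's strand from 250 bases before to 50 bases after the RefSeq start (GRCh38.p14). Capitals mark exact matches, on either strand, of the GC box GGGCGG and the CCAAT box CCAAT. Matches of one motif do not overlap those of the other in these 5 windows, but GC boxes in a run share bases and are counted each. The first 4 belong to KAT6B (chr10:74825005-74825304, plus strand), KMT2D (chr12:49060745-49061044, minus strand), KDM1A (chr1:23019218-23019517, plus strand) and KMT2C (chr7:152435954-152436253, minus strand), all higher in the library labelled HIPK2 shRNA. The last, KMT5A (chr12:123383882-123384181, plus strand), was lower. The windows of KAT6B and KMT2D lie outside the gene bounds given with the counts. Those bounds start at base 74825582 for KAT6B and end at base 49059774 for KMT2D.
KAT6B: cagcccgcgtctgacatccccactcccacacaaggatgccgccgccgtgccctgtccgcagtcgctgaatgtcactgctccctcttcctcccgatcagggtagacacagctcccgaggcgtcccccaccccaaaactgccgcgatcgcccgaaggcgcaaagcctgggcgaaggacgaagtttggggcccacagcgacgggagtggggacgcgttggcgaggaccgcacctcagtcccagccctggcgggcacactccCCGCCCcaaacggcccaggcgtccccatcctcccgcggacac
KMT2D: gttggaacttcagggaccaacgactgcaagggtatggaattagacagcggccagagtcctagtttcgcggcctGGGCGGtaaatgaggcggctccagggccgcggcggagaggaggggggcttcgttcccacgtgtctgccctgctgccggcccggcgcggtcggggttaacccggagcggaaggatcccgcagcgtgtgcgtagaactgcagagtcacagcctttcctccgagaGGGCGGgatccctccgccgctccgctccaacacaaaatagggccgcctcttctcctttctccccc
KDM1A: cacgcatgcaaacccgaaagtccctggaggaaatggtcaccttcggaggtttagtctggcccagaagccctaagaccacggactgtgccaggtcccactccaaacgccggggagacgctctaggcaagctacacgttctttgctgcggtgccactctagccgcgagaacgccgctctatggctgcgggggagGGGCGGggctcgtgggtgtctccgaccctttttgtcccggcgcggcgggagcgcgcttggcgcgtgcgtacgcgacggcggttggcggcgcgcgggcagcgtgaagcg
KMT2C: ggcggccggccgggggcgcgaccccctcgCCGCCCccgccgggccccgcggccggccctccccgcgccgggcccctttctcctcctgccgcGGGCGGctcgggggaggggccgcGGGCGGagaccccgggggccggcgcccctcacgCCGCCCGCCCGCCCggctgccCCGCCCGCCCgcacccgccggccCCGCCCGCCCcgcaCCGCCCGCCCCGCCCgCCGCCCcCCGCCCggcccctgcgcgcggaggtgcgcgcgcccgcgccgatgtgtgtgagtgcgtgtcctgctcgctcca
KMT5A: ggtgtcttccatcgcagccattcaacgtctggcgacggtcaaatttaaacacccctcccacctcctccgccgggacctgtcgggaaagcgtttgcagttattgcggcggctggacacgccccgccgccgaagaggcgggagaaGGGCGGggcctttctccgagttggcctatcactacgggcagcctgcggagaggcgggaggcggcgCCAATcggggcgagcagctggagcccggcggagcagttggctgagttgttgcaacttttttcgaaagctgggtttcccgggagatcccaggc

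Of the 68 members, 61 matched a promoter window in the RefSeq table. A GC box was found in 43 of the 61 (70.5%) and in 44.6% of 27305 promoter windows of the same length. The windows were the first listed for each RefSeq symbol, and the 27305 were not limited to genes measured or expressed here. The CCAAT box was found in 19 of the 61 (31.1%), against 35.7% of all windows. The 5 COMPASS genes with a window (SETD1B had none) all held a GC box and none held a CCAAT box, and KMT2C alone held 15 GC boxes. The members' windows were richer in G and C, with a median of 66.7%, where the median of all windows was 58.3%. The part of base composition in these shares was not tested.

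Among the demethylases, KDM1A had the largest log2 ratio with 1 CPM added, while the CPM ratios of KDM4D and KDM8 were larger at lower levels. This enzyme, also called LSD1, removes methyl groups from H3K4 and works with HDAC1, HDAC2 and the CoREST scaffold RCOR1. KDM1A (ENSG00000004487, chr1:23019448-23083689, plus strand, GRCh38) had 15706 counts in the library labelled HIPK2 shRNA and 8599 in the scramble library. Its level was 580 CPM in the library labelled HIPK2 shRNA and 313 CPM in the scramble library, a ratio of 1.85 (1.80 to 1.90). In the authors' TPM it had 289.7 in the library labelled HIPK2 shRNA and 146 in the scramble library, 1.98 times higher. It was the most abundant of the 68 members per transcript length in the library labelled HIPK2 shRNA, and the third in the scramble library, after HDAC1 and HDAC3.

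None of the other subunits of CoREST-type complexes was past 1.5-fold higher in CPM. HDAC1 was at 275 CPM in the library labelled HIPK2 shRNA and 315 CPM in the scramble library, 1.14-fold lower (1.11 to 1.18). RCOR1 was at 10.7 CPM in the library labelled HIPK2 shRNA and 9.40 CPM in the scramble library, a log2 ratio of 0.17 (-0.060 in TPM). The related scaffold RCOR2 had 46 counts in the library labelled HIPK2 shRNA and 103 in the scramble library, 2.21-fold lower (1.55 to 3.20), and RCOR3 had a log2 ratio of -0.15. KDM1B, the only other flavin-dependent demethylase, had 205 counts in the library labelled HIPK2 shRNA and 118 in the scramble library, 1.76 times higher (1.40 to 2.23), so both members of the KDM1 family were past 1.5-fold.

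Of the 18 Jumonji demethylase genes, 14 were expressed and 2 of these were past 1.5-fold, both higher. KDM8 (JMJD5, chr16:27203495-27221768) had 170 counts in the library labelled HIPK2 shRNA and 92 in the scramble library, 1.87 times higher (1.45 to 2.44). KDM4D, which removes methyl groups from H3K9, had 65 counts in the library labelled HIPK2 shRNA and 34 in the scramble library, a ratio of 1.94 (1.26 to 3.03) at a low level. KDM6B (JMJD3), an H3K27 demethylase, was at 21.6 CPM in the library labelled HIPK2 shRNA and 14.1 CPM in the scramble library. Its CPM ratio was 1.53 (1.34 to 1.74) and its log2 ratio of 0.58 lay just under the 1.5-fold line. The other H3K27 demethylase, KDM6A, was at 8.24 CPM in the library labelled HIPK2 shRNA and 8.49 CPM in the scramble library, a ratio whose interval included 1 (1.03-fold lower, 0.854 to 1.24).

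The H3K36 demethylases KDM2A and KDM2B lay on opposite sides. KDM2A was at 95.2 CPM in the library labelled HIPK2 shRNA and 70.8 CPM in the scramble library, 1.34 times higher (1.27 to 1.43). KDM2B was at 16.3 CPM in the library labelled HIPK2 shRNA and 19.8 CPM in the scramble library, 1.22-fold lower (1.07 to 1.39). Among the H3K4 demethylases of the KDM5 family, KDM5C was 1.27 times higher (1.2 to 1.33), at 125 CPM in the library labelled HIPK2 shRNA and 98.3 CPM in the scramble library. KDM5A had a ratio of 1.06 (0.896 to 1.26) and KDM5B one of 1.02 (0.880 to 1.19). The H3K9 and H3K36 demethylases KDM4A, KDM4B and KDM4C had log2 ratios of -0.04, 0.11 and -0.11. The H3K9 demethylases KDM3A and KDM3B were at 0.04 and -0.16.

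Under 1 CPM in both libraries were 4 genes of the demethylase families. KDM7A had 12 counts in the library labelled HIPK2 shRNA and 8 in the scramble library, a ratio of 1.52 whose interval (0.572 to 4.29) covers both directions. KDM4E, KDM4F and KDM5D had 0 counts in both, which allows up to 0.111 CPM in the library labelled HIPK2 shRNA and 0.109 CPM in the scramble library. KDM4D, KDM4E and KDM4F are close relatives of each other, and reads of such copies can be exchanged.

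All 6 catalytic subunits of the COMPASS complexes were higher in the library labelled HIPK2 shRNA, 4 of them past 1.5-fold. KMT2D (ENSG00000167548, chr12:49018975-49059774, minus strand), which places H3K4 methylation at enhancers, had 2535 counts in the library labelled HIPK2 shRNA and 1341 in the scramble library. Its level was 93.7 CPM in the library labelled HIPK2 shRNA and 48.9 CPM in the scramble library, 1.92 times higher (1.79 to 2.05). Its enhancer-acting relative KMT2C (chr7:152134922-152436005) had 225 counts in the library labelled HIPK2 shRNA and 114 in the scramble library, 2.0 times higher (1.59 to 2.53). Parts of KMT2C are copied elsewhere in the genome, so its count is uncertain. The exons of KMT2A, KMT2B, KMT2C and KMT2D each overlap those of another annotated gene. So do those of 34 of the 63 expressed members in all, and those of 5958 of all 11813 expressed genes. Reads from such overlaps cannot be told apart where counting ignores strand or the overlap lies on the same strand.

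The promoter-acting KMT2A (MLL1, chr11:118436490-118526832) was at 17.1 CPM in the library labelled HIPK2 shRNA and 9.48 CPM in the scramble library, a ratio of 1.81 (1.55 to 2.11). KMT2B (chr19:35718019-35738878) was at 80.8 CPM in the library labelled HIPK2 shRNA and 50.2 CPM in the scramble library, 1.61 times higher (1.5 to 1.72). SETD1A and SETD1B, which carry the bulk of H3K4 trimethylation, were 1.43 times (1.33 to 1.54) and 1.23 times (1.12 to 1.34) higher. The median log2 ratio of the 6 genes was 0.73, and that of the 17 other methyltransferases was -0.06, with 8 of those 17 higher and 9 lower. In TPM 11 of the 17 were higher, with a median of 0.22, against a median of 0.59 for the 6. Ratios in TPM were shifted upward over all expressed genes, with a median of 0.08 and 57.8% higher.

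Of the subunits that all COMPASS complexes share, none was past 1.5-fold higher. WDR5, which holds the complex together, was at 179 CPM in the library labelled HIPK2 shRNA and 193 CPM in the scramble library. RBBP5, another core subunit, was at 9.09 CPM in the library labelled HIPK2 shRNA and 15.7 CPM in the scramble library, 1.72-fold lower (1.47 to 2.03). ASH2L and DPY30 had log2 ratios of -0.19 and -0.15. MEN1 (menin), which binds KMT2A and KMT2B, was at -0.31. HCFC1, a large adaptor protein of the SETD1 and KMT2A complexes, was 1.67 times higher (1.59 to 1.75). Of the 12 listed partners, 1 was past 1.5-fold higher and 1 past 1.5-fold lower. Their median was -0.07 in CPM and 0.03 in TPM, where that of all expressed genes was 0.08 in TPM.

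**Figure D2:**
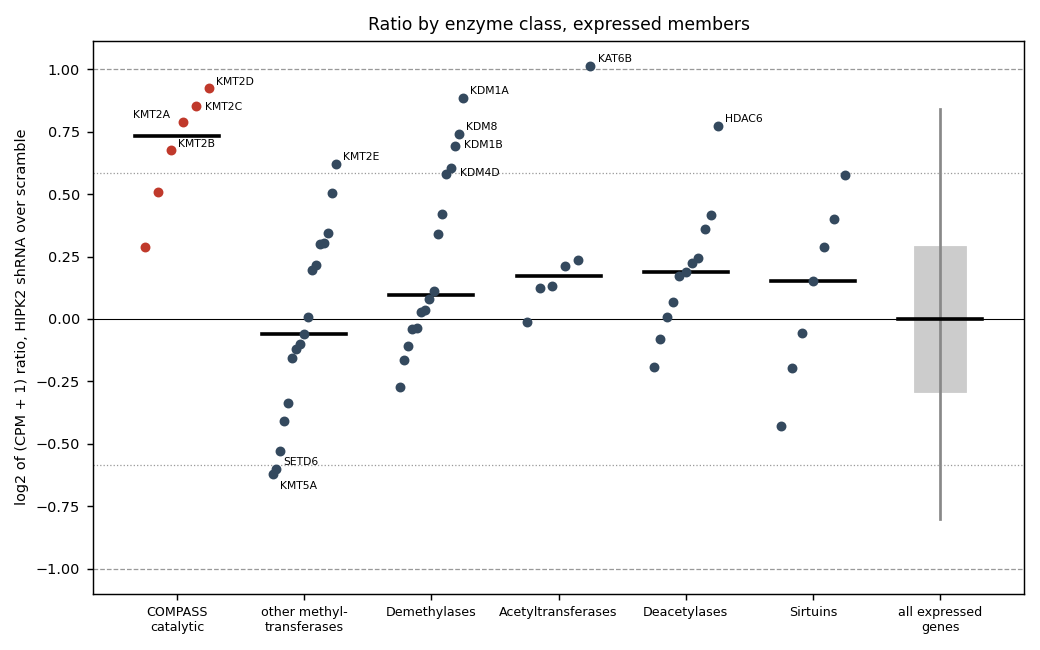
Log2 ratio of each of the 63 expressed members by class, with the class median as a bar; at right the median, quartiles (box) and 5th to 95th percentiles (line) of all expressed genes. Dotted lines mark 1.5-fold and dashed lines 2-fold. The COMPASS genes lie between 0.29 and 0.92, and KAT6B is the single member at 2-fold on this scale.

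Transcript length moved with these values, and its part in them was not tested beyond the values given here. Over all 11808 expressed genes with an annotated transcript, ranked into 5 groups of about equal size by length, the median log2 ratio was -0.14 in the shortest group (up to 2127 bases) and 0.18 in the longest (5898 bases or more). Of the 63 expressed members, 29 were in that longest group, and the members' median longest transcript was 5689 bases, against 3648.5 bases for all expressed genes with one. Spearman's rho between length and log2 ratio was 0.26 across those 11808 genes and 0.23 across the 63 members. These describe genes within a pair of libraries, and genes are not independent replicates.

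KMT2A, KMT2C and KMT2D have longest transcripts of 16628, 16862 and 19419 bases. Of 61 expressed genes with a transcript of 16000 bases or more, these 3 included, 77.0% were higher and 20 (32.8%) past 1.5-fold higher, with a median log2 ratio of 0.29. Of 1016 expressed genes with a transcript of 8000 bases or more, 70.0% were higher and 21.9% past 1.5-fold higher, with a median of 0.24. The 16 members among these 1016 genes had a median log2 ratio of 0.26, with 15 higher and 5 past 1.5-fold higher. After subtracting the trend with length, the log2 ratio was 0.60 for KMT2D, 0.55 for KMT2C, 0.49 for KMT2A and 0.49 for KMT2B. SETD1A was then at 0.37 and SETD1B at 0.11. Without the 6 COMPASS genes, 37 of the other 57 expressed members were higher in CPM, with a median of 0.13 before and 0.03 after that step. The median of the 6 genes was 0.49 after that step, and KMT2D was the single one of them still past 1.5-fold. Of the 63 expressed members 8 were then past 1.5-fold higher (KDM1A, KDM1B, KDM4D, KDM8, KMT2D, KAT6B, HDAC6 and SIRT4), and 9.64% of all genes with a transcript length were. KDM1A, with a longest transcript of 3059 bases in a length group whose median was -0.09, was at 0.96. NSD1, with a longest transcript of 12892 bases, was not among the higher genes, at 21.0 CPM in the library labelled HIPK2 shRNA and 22.6 CPM in the scramble library.

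**Figure D3:**
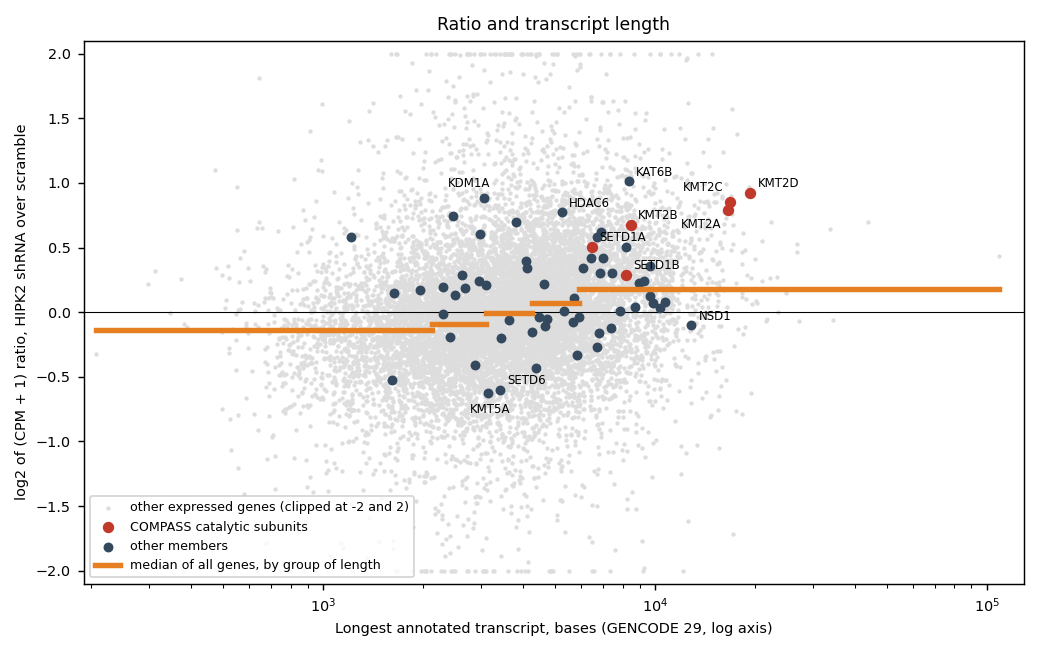
Log2 ratio against the longest annotated transcript (log axis) for all expressed genes (grey, clipped at -2 and 2), COMPASS genes (red) and other members (dark), with the median of all genes in each of the 5 length groups (orange bars). The bars go up with length, from -0.14 to 0.18, and KMT2A, KMT2C and KMT2D lie above the bar of their group.

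Both members past 1.5-fold lower were methyltransferases. KMT5A (SET8, chr12:123383773-123409358), which monomethylates H4K20 in the cell cycle, had 601 counts in the library labelled HIPK2 shRNA and 953 in the scramble library, 1.56-fold lower (1.41 to 1.74). SETD6 (chr16:58515479-58521181), known for methylating the NF-kB subunit RELA, had 277 counts in the library labelled HIPK2 shRNA and 440 in the scramble library, 1.57-fold lower (1.35 to 1.83). In TPM both were lower by less, with log2 ratios of -0.41 and -0.39. KMT5B, which adds further methyl groups at H4K20, was 1.29-fold lower (1.08 to 1.54), while its relative KMT5C was 1.15 times higher (1.02 to 1.30). Proliferation markers did not move one way, with log2 ratios of 0.98 for MKI67, 0.72 for TOP2A, -0.01 for PCNA, -0.21 for CCNB1 and -1.52 for FOXM1. Their part in the value of KMT5A was not tested.

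None of the silencing methyltransferases EZH1, EZH2, EHMT1 and EHMT2 was past 1.5-fold. EZH2, the main catalytic subunit of the complex PRC2, was at 15.2 CPM in the library labelled HIPK2 shRNA and 15.8 CPM in the scramble library, and its interval included 1 (1.04-fold lower, 0.910 to 1.2). EZH1 had a ratio of 1.18 (0.980 to 1.43). The PRC2 core subunit EED, which binds the H3K27 mark, was at 18.8 CPM in the library labelled HIPK2 shRNA and 34.9 CPM in the scramble library, 1.86-fold lower (1.67 to 2.07). The accessory subunit AEBP2 was at 10.9 CPM in the library labelled HIPK2 shRNA and 4.19 CPM in the scramble library, 2.59 times higher (2.08 to 3.24). The third core subunit, SUZ12, had a log2 ratio of 0.07, and the 8 PRC2 partners had a median of -0.003. Of the H3K9 enzymes, EHMT2 (G9a) was 1.27 times higher (1.21 to 1.34) and EHMT1 (GLP) was at 1.01 (0.929 to 1.09).

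For the remaining methyltransferases, DOT1L, the H3K79 enzyme, was at 102 CPM in the library labelled HIPK2 shRNA and 82.1 CPM in the scramble library, 1.24 times higher (1.17 to 1.31). SETD2, which trimethylates H3K36, had a ratio of 1.5 (1.2 to 1.88) on 203 counts in the library labelled HIPK2 shRNA and 137 in the scramble library. NSD1, which dimethylates H3K36, was 1.07-fold lower, with an interval that included 1 (0.958 to 1.21). KMT2E, a KMT2 relative outside COMPASS, had 230 counts in the library labelled HIPK2 shRNA and 142 in the scramble library, 1.64 times higher (1.33 to 2.04). SETD3, a histidine methyltransferase of actin, was 1.35-fold lower (1.19 to 1.54). SETD9 had 30 counts in the library labelled HIPK2 shRNA and 56 in the scramble library, 1.84-fold lower (1.16 to 2.97), but its log2 ratio with the pseudocount was -0.53. SETD4, SETD5 and SETD7 had log2 ratios of -0.16, 0.30 and -0.12.

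Among the acetyltransferases, KAT6B was the single expressed member past 2-fold by the log2 ratio with 1 CPM added. By the CPM ratio with nothing added, KMT2C, SIRT4 and the unexpressed KAT2B were also at 2-fold or more. KAT6B (MORF, chr10:74825582-75032622), a MYST enzyme, had 169 counts in the library labelled HIPK2 shRNA and 71 in the scramble library. Its level was 6.25 CPM in the library labelled HIPK2 shRNA and 2.59 CPM in the scramble library, a ratio of 2.41 (1.82 to 3.23) that includes 2-fold. Its log2 ratio was 1.01 in CPM, 0.66 in TPM and 0.83 after subtracting the trend with length. Exons of KAT6B overlap those of a pair of opposite-strand genes, AC018511.1 and AC018511.2, and whether the counting used strand is not known. Its close relative KAT6A (MOZ) was at 6.80 CPM in the library labelled HIPK2 shRNA and 5.61 CPM in the scramble library, a ratio of 1.21 (0.973 to 1.51).

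The abundant acetyltransferases were nearly level. KAT2A (GCN5), the enzyme of the SAGA and ATAC complexes, was at 178 CPM in the library labelled HIPK2 shRNA and 154 CPM in the scramble library, 1.16 times higher (1.11 to 1.21). KAT5 (TIP60), of the NuA4 complex, was at 95.9 CPM in the library labelled HIPK2 shRNA and 96.6 CPM in the scramble library. KAT7 (HBO1) and KAT8 (MOF) had ratios of 1.09 (1.02 to 1.17) and 1.10 (1.01 to 1.2). KAT2B (PCAF) was under the level called expressed, at 27 counts in the library labelled HIPK2 shRNA and 6 in the scramble library, a ratio of 4.56 with a wide interval (1.85 to 13.5). KAT2A had a much higher level than its paralog KAT2B per transcript length, at 86.4 and 0.30 TPM in the library labelled HIPK2 shRNA and 70.0 and 0.0616 TPM in the scramble library.

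Of 11 zinc-dependent deacetylases, HDAC6 was the only one past 1.5-fold in CPM. HDAC6 (chrX:48801377-48824976), a cytoplasmic enzyme that deacetylates tubulin, had 1002 counts in the library labelled HIPK2 shRNA and 583 in the scramble library, 1.74 times higher (1.57 to 1.93). In TPM it had 16.9 in the library labelled HIPK2 shRNA and 9.38 in the scramble library. HDAC3, the enzyme of the NCOR complexes, was at 259 CPM in the library labelled HIPK2 shRNA and 230 CPM in the scramble library, 1.13 times higher (1.09 to 1.17). HDAC8, another class I enzyme, had a log2 ratio of -0.08.

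The class IIa deacetylases, which shuttle between nucleus and cytoplasm, ranged from 0.01 to 0.42 in log2 ratio. HDAC7 was 1.34 times higher (1.26 to 1.43), at 89.5 CPM in the library labelled HIPK2 shRNA and 66.8 CPM in the scramble library. HDAC9 was 1.31 times higher (1.12 to 1.53), and HDAC4 and HDAC5 had ratios of 1.19 (0.992 to 1.43) and 1.01 (0.852 to 1.19). HDAC10, a polyamine deacetylase, was at a ratio of 1.14 (1.04 to 1.27) and HDAC11 at 1.2 (1.03 to 1.39).

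HDAC2 gave different answers in the different units. It had 649 counts in the library labelled HIPK2 shRNA and 626 in the scramble library, a CPM ratio of 1.05 (0.940 to 1.17). In the authors' TPM it had 11.9 in the library labelled HIPK2 shRNA and 4.18 in the scramble library, 2.85 times higher, and it was the single expressed member past 2-fold by log2(TPM + 1) (2.69% of all expressed genes were). By the TPM ratio with nothing added, KAT6B, KDM4D, KDM8, KMT2C, KMT2D, KMT2E and SIRT4 were also past 2-fold, from lower levels. The count divided by the FPKM gives the transcript length that the authors' values imply. For HDAC2 this length was 3015 bases in the library labelled HIPK2 shRNA and 7626 bases in the scramble library, and its 17 annotated transcripts span 497 to 9874 bases. The implied lengths thus differed by 2.53 times, while the CPM differed by less than their counting error.

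An implied length that differed by over 1.5 times was found in 3 of 63 expressed members (4.76%) and in 4.91% of all expressed genes. Besides HDAC2 these were KDM3A and KDM5B. KDM3A had an implied length of 7557 bases in the library labelled HIPK2 shRNA and 3953 bases in the scramble library. It had 189 counts in the library labelled HIPK2 shRNA and 186 in the scramble library, and its TPM was 1.38 in the library labelled HIPK2 shRNA and 2.39 in the scramble library. KDM5B had an implied length of 10340 bases in the library labelled HIPK2 shRNA and 6578 bases in the scramble library, and a log2 ratio of -0.36 in TPM. SETD5 came close to that limit, with 2682 bases in the library labelled HIPK2 shRNA and 3933 bases in the scramble library, and its log2 ratio was 0.30 in CPM and 0.85 in TPM.

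With 1 CPM or 1 TPM added, KDM6B, SETD1A, SETD5, SIRT4 and HDAC2 were past 1.5-fold higher in TPM and not in CPM. With nothing added, KDM6B and SIRT4 were past it in CPM too, at ratios of 1.53 and 2.62. In TPM, 47 of the 63 expressed members were higher (74.6%), where 57.8% of all expressed genes were. At 1.5-fold, 14 members were higher in TPM (22.2%; 10.6% of all) and 0 lower (7.34% of all). With 1 CPM or 1 TPM added, 9 members were past 1.5-fold in CPM and in TPM alike: KDM1A, KDM1B, KDM4D, KDM8, KMT2B, KMT2D, KMT2E, KAT6B and HDAC6. KMT2A and KMT2C, with TPM of 1.59 and 0.99 in the library labelled HIPK2 shRNA and 0.932 and 0.348 in the scramble library, were past 1.5-fold in CPM, while their log2 ratios in TPM, with 1 TPM added, were 0.42 and 0.56. For 10 of the 63 members the CPM and TPM ratios lay on opposite sides of 0, and 12.2% of all expressed genes did so.

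**Figure D4:**
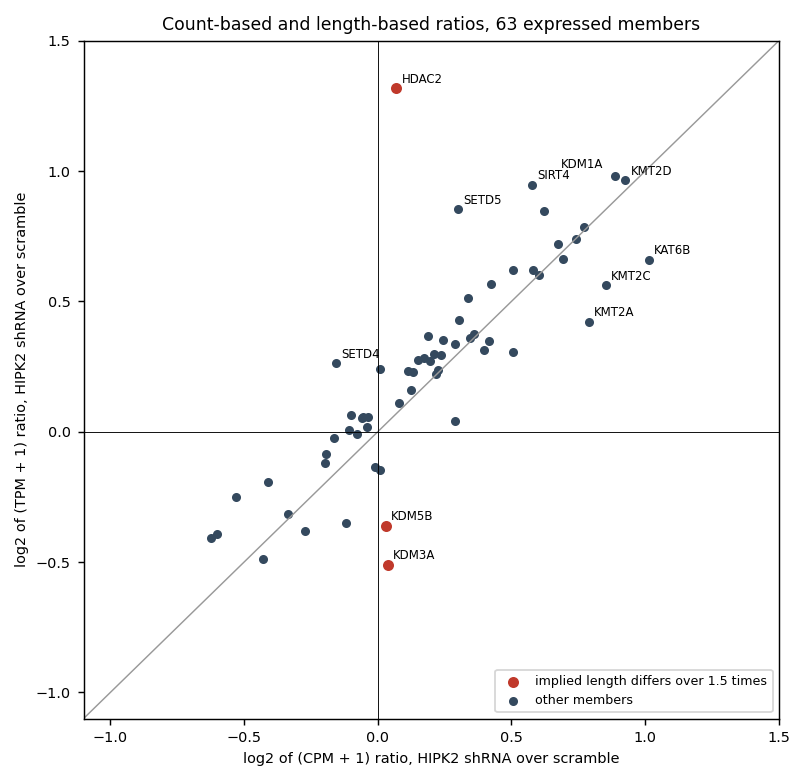
Log2 ratio in the authors' TPM against that in CPM for the 63 expressed members (the diagonal marks equal values), with members whose implied length differs by over 1.5 times in red. HDAC2 is at 0.07 in CPM and 1.32 in TPM, and KDM3A and KDM5B are near 0 in CPM and lower in TPM, while most members lie near the diagonal.

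The sirtuins had no member past 1.5-fold by the log2 ratio with 1 CPM added, while SIRT4 passed it in TPM. SIRT1, the nuclear deacetylase of histones and p53, was at 6.61 CPM in the library labelled HIPK2 shRNA and 4.78 CPM in the scramble library, 1.39 times higher (1.10 to 1.75). SIRT5, a mitochondrial desuccinylase, was at 6.21 CPM in the library labelled HIPK2 shRNA and 8.71 CPM in the scramble library, 1.40-fold lower (1.15 to 1.72). SIRT4, also mitochondrial, had 31 counts in the library labelled HIPK2 shRNA and 12 in the scramble library, a ratio of 2.62 (1.31 to 5.60). The pseudocount brought its log2 ratio to 0.58, just under the 1.5-fold line. The most abundant sirtuins per transcript length were SIRT2 (70.1 and 67.4 TPM) and SIRT7 (58.8 and 64.0 TPM), first in the library labelled HIPK2 shRNA and then in the scramble library. In CPM SIRT2 was 1.04-fold lower (0.984 to 1.10) and SIRT7 1.15-fold lower (1.08 to 1.22). SIRT6 and the mitochondrial SIRT3 had ratios of 1.11 (1.01 to 1.22) and 1.24 (1.08 to 1.41).

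By level, a few genes made up most of the transcripts of these families. In the library labelled HIPK2 shRNA the order in TPM was KDM1A, HDAC3, HDAC1, KAT2A and KAT5, together 53.8% of the members' summed TPM. In the scramble library it was HDAC1, HDAC3, KDM1A, KAT5 and KAT2A, together 52.3%. The class medians of the log2 ratio were 0.22 for the methyltransferases, 0.19 for the deacetylases, 0.17 for the acetyltransferases, 0.15 for the sirtuins and 0.10 for the demethylases. The order changed with the unit. In TPM the deacetylases were highest (0.35) and the sirtuins lowest (0.05), where the median of all expressed genes was 0.08. With the length trend removed the sirtuins were highest (0.29) and the demethylases turned to -0.03. The interval of the CPM ratio lay above 1 for 33 of the 63 expressed members and below 1 for 10. The same count was not taken over all expressed genes, and the intervals cover counting error only. These numbers therefore do not set the members apart from other genes.

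Enzymes and partners outside the name rule were examined as 9 lists holding 116 expressed genes. Of these, 61 were higher and 55 lower, with 11 past 1.5-fold higher, 7 past 1.5-fold lower and a median log2 ratio of 0.03. The acetyltransferases not named KAT were all higher in CPM, 10 of 10, and 9 of 10 in TPM, with a median of 0.41 in CPM, and 3 were past 1.5-fold. Over all expressed genes 57.8% were higher in TPM, and 10.6% were past 1.5-fold higher in CPM. The median longest transcript of this list was 7563.5 bases, within the longest group, where 65.8% of all genes were higher in CPM. After subtracting the trend with length the list's median was 0.35. TAF1, the largest subunit of TFIID, was at 9.65 CPM in the library labelled HIPK2 shRNA and 4.96 CPM in the scramble library, 1.95 times higher (1.58 to 2.41). The nuclear receptor coactivator NCOA3 was 1.67 times higher (1.39 to 2.01). EP300 (p300), named here after its values were seen, was 1.61 times higher (1.48 to 1.75). Its paralog CREBBP was also named after its values were seen. CREBBP was at 51.7 CPM in the library labelled HIPK2 shRNA and 51.3 CPM in the scramble library. Its CPM ratio was 1.01, with an interval that included 1 (0.937 to 1.09), and its log2 ratio was -0.22 after subtracting the trend with length. In the authors' TPM CREBBP had 11.3 in the library labelled HIPK2 shRNA and 31.0 in the scramble library, so its log2 ratio was 0.01 in CPM and -1.37 in TPM. Its implied length was 6833 bases in the library labelled HIPK2 shRNA and 2311 bases in the scramble library, 2.96 times apart.

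The other lists were nearer to 0. Of 13 further lysine methyltransferases 7 were higher, and ASH1L, an H3K36 enzyme, was the single one past 1.5-fold, at 1.96 times higher (1.60 to 2.41), while PRDM2 was 1.42 times higher (1.22 to 1.64). Of 9 Jumonji-family genes outside the rule, not all of them established demethylases, 5 were higher. JMJD1C was 1.97 times higher (1.5 to 2.59) and HSPBAP1 2.09-fold lower (1.55 to 2.85). Of 22 deacetylase partners 9 were higher, with a median of -0.08 in CPM and 0.03 in TPM (all expressed genes 0.08 in TPM). TBL1XR1, a subunit of the NCOR complexes, was at 25.3 CPM in the library labelled HIPK2 shRNA and 11.6 CPM in the scramble library, 2.18 times higher (1.91 to 2.5), with a log2 ratio of 1.06 in CPM and 0.38 in TPM. The implied length of TBL1XR1 was 5955 bases in the library labelled HIPK2 shRNA and 3491 bases in the scramble library. MBD2, the methyl-DNA binding subunit of NuRD, was 1.75-fold lower (1.57 to 1.95).

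Of 29 acetyltransferase partners 15 were higher, with a median of 0.01. TRRAP, the large scaffold of SAGA and NuA4, was 1.69 times higher (1.57 to 1.81), and JADE1, a subunit of HBO1 complexes, was 1.82-fold lower (1.43 to 2.33). Of 8 arginine methyltransferases 4 were higher, with PRMT6 1.58-fold lower (1.38 to 1.81) and CARM1 1.28 times higher (1.24 to 1.33). Of 5 acetyl-lysine readers 2 were higher, with a median of -0.17 in CPM and 0.04 in TPM (all expressed genes 0.08 in TPM). The largest differences were those of BRD9, 1.39-fold lower (1.30 to 1.49), and BRD2, 1.19-fold lower (1.14 to 1.24).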

How the data were processed

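RNA of 2 Cal-27 libraries was sequenced, 1 for each group. The authors deposited, per the file headers, a read count, a TPM value and an FPKM value for each gene in each library. FastQC, TopHat2 2.1.1 and the build GRCh38 (hg38) are named in the submitters' processing notes; no source used here gives the counting tool or its strand setting. The members and lists were chosen with earlier results of these data known.

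From the deposited counts, CPM was computed with TMM factors (edgeR 4.0.16, R 4.3.3), and genes with at least 1 CPM in at least 1 library were kept. The log2 ratio used a pseudocount of 1 CPM, and size was described at 2-fold and 1.5-fold, since 1 library in each group allows no test. Ratio intervals are exact 95% intervals for the counts (scipy 1.17.1). Without molecular identifiers, PCR copies count as reads, so intervals cover counting error only. A gene with 0 counts was given an upper limit of 3 counts. The deposited TPM was analysed as log2(TPM + 1), and the deposited FPKM served to derive the implied transcript length (count over FPKM, scaled to single-transcript genes). Transcript lengths and exon overlaps came from GENCODE 29, and the length trend was a lowess curve (statsmodels 0.14.6, fraction 0.3) on the longest transcript. Promoters came from RefSeq. The scripts were tested on simulated data.

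Named were members past 2-fold in CPM or TPM, those past 1.5-fold in CPM at 5 CPM or more, the extremes of each class, members with a shifted implied length or with 0 counts, and up to 2 genes of each other list at 5 CPM or more. Other members are given beside these. Alternatives were upper-quartile, total-count and DESeq2 1.42.0 size-factor scaling, pseudocounts of 0.1 and 5, other filters and folds, TPM, removal of the length trend, and removal of genes that share exons. The result of 1 marker gene is not reported here.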

Additional observations from a re-analysis of the deposited data

How the results depend on the processing

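No paired analysis was possible because there was only 1 library a group, and for the same reason no replicate could be left out. The 1.5-fold counts and the COMPASS median were added after the data were seen. The single member past 2-fold higher (KAT6B) became 2 members when 0.1 CPM was added and 0 when 5 CPM was added, and 0 with a filter at 10 CPM, removal of the length trend, removal of genes that share exons or a 4-fold rule. With a 1.5-fold rule the counts of 1 higher and 0 lower became 11 and 2. The 11 members past 1.5-fold higher became 5 with a pseudocount of 5 CPM, 5 with a filter at 10 CPM (44 members kept) and 4 without genes that share exons (29 members kept). The 2 members past 1.5-fold lower became 0 with upper-quartile factors, total counts, a pseudocount of 5 CPM, TPM or the length trend removed, and 1 without genes that share exons. The filter and the exon rule leave fewer members, and a larger pseudocount shrinks low genes by construction; for the other settings the cause was not tested. HIPK2 reversed to a log2 ratio of -0.49 in TPM. Of 441 values of single members under other settings, 388 stayed within their counting interval and 53 moved out of it. All 13 members past 1.5-fold kept their sign under the 7 settings tried for single genes, as did 48 of the 63 expressed members. A pseudocount cannot change the sign of a ratio. The other scalings moved the median log2 ratio of all expressed genes only to 0.07, 0.06 and -0.01. Those settings could therefore not turn a ratio past 1.5-fold, and the kept signs under them are no check. Depth limits KDM4D, SIRT4, SETD9, KAT2B and KDM7A most, which had between 6 and 65 counts a library.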
